A study of Rattus norvegicus with 11 samples.

Results

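The collagen gene family was read from bulk RNA-seq of cells taken from healing skull defects in rats. Its members were every gene of the count table whose symbol has the form Col, a number, the letter a and a number, which gave 44 of 23781 genes. Each member was picked by its symbol alone, but the symbol pattern, the classes and the gene lists were set with earlier results of these data known. Adult Sprague Dawley rats, 4 months of age, had received a defect across a cranial suture and the bone on both sides of it, and the new tissue was collected 6 weeks after surgery. In NC the defect was left without a scaffold (3 libraries). In GelMA it held a hydrogel of gelatin methacryloyl (3 libraries), in CTS a porous chitosan gel (3 libraries), and in PLA an electrospun membrane of polylactic acid (2 libraries). In all groups the tissue was digested with type 1 collagenase, stained after fixation and permeabilisation, and sorted for cells without the leukocyte antigen Cd45. The sources used here do not say whether the libraries of a group came from separate animals, so p-values measure the spread between these libraries, which may be technical.

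Collagens are secreted proteins built from 3 chains wound into a triple helix, and the genes fall into classes by what the helices assemble into. Fibrillar collagens form the tensile fibres of suture mesenchyme, dermis, tendon and bone, and type II and type X collagen mark cartilage. Type IV collagens form the sheet under epithelia and around blood vessels, FACIT collagens sit on the surface of fibrils, network collagens form lattices, and type VI collagen forms beaded filaments around cells. Multiplexins lie in vascular basement membranes, and transmembrane collagens stay attached to the cell. Before secretion the chains are hydroxylated, glycosylated, folded by dedicated chaperones and trimmed, and outside the cell they are cross-linked.

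The 6 type IV genes lie in head-to-head pairs, in which a pair of neighbouring genes is read in opposite directions from nearby starts. In the RefSeq annotation of the rat assembly GRCr8 the annotated starts of Col4a1 and Col4a2 on chromosome 16 were 76 bases apart, those of Col4a3 and Col4a4 on chromosome 9 were 412 bases apart, and those of Col4a5 and Col4a6 on chromosome X were 1414 bases apart. The sequences between or before these starts are shown because Col4a1 and Col4a2 had similar fold changes in these libraries while Col4a6, next to Col4a5, was nearly without counts in PLA. The Col4a1-Col4a2 spacer is chr16:84885521-84885596 on the plus strand, and the other sequences are the 250 bases before Col4a5 (chrX:109907109-109907358, plus strand) and before Col4a6 (chrX:109905945-109906194, minus strand), all of GRCr8 and taken from RefSeq. Capitals mark the GC box GGGCGG or its complement CCGCCC.
Col4a1-Col4a2 spacer: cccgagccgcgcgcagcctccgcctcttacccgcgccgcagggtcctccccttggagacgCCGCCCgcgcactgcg
Col4a5 upstream: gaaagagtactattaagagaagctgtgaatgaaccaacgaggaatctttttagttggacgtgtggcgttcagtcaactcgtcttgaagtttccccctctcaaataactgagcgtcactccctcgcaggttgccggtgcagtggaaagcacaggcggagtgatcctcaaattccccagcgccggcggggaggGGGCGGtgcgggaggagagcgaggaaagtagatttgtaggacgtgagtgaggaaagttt
Col4a6 upstream: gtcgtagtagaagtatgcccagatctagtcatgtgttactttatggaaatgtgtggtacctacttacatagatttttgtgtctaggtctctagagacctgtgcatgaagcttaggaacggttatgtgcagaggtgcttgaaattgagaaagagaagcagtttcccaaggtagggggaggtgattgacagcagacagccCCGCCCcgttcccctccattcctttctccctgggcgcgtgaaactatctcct

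Each of these sequences held 1 GC box and neither CCAAT nor TATAAA on either strand. The Col4a1-Col4a2 spacer is shorter than the others, and the 250 bases before Col4a1 and before Col4a2 each held CCAAT. Promoter sequence was at hand for 35 of the 44 members. In windows of 250 bases before the start, searched on both strands, GGGCGG was found in 19 of the 35 members and in 30.5% of all 33469 windows. CCAAT was found in 11 members and in 34.0% of all windows, and TATAAA in 4 members and in 12.9%. These motifs do not overlap each other in their letters, and a match describes the sequence alone.

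Total counts per library ran from 22509898 to 31290849. Of the 44 members, 39 passed the filter on low counts and were tested with 18049 genes in all. Levels of single genes are given as CPM, counts scaled to a common library total after TMM scaling, which offsets differences in library composition. Levels of different genes are compared only as FPKM, which also divides by gene length. TMM factors were 0.772 and 0.780 in the PLA libraries and 0.804 to 1.14 elsewhere. Differences were tested with edgeR's quasi-likelihood test over all 11 libraries, and a gene counted as called when its log2 fold change was over 1 in size and its p, adjusted by Benjamini-Hochberg across the 18049 genes, was under 0.05. Called in either direction were 12.3% of genes in PLA against NC, 6.08% in PLA against GelMA, 9.95% in PLA against CTS, 8.24% in GelMA against NC, 0.177% in CTS against NC and 1.74% in CTS against GelMA. With scaling by library size alone, the median log2 fold change of all genes moved from −0.11 to −0.43 in PLA against NC, from −0.04 to −0.58 in PLA against GelMA and from −0.03 to −0.51 in PLA against CTS.

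NC replicate 2 stood apart from every other library. Collagen genes took 18.7% of its counts, against 1.03% and 3.30% in NC replicates 1 and 3, and its summed fibroblast markers (8 genes) reached 20114 CPM, against 1611 and 4040 CPM. Its summed leukocyte markers (7 genes) were 1504 CPM, against 4588 to 6844 CPM in the other 10 libraries. Ptprc, which encodes Cd45, was present in every library at 336 to 1460 CPM, lowest in NC replicate 2, so the sorted fraction was not free of leukocyte RNA. In bulk RNA, fewer cells of a type and less RNA per cell cannot be told apart. Each comparison was therefore made with and without NC replicate 2, and the part of cell makeup in the differences was not tested.

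Collagen genes took 2.51% to 4.05% of the counts in every library outside NC. The share was 3.16%, 3.08% and 3.21% in the GelMA libraries, 2.58%, 3.48% and 4.05% in CTS, and 2.51% and 3.19% in PLA. As mean ± SD it was 7.67% ± 9.60 in NC (n = 3), 3.15% ± 0.0668 in GelMA (n = 3), 3.37% ± 0.743 in CTS (n = 3) and 2.85% ± 0.479 in PLA (n = 2). The groups overlapped, and the spread within NC exceeded every difference between groups. Col1a1, Col1a2 and Col3a1, the chains of the main fibrous collagens, made up 79.8% to 90.4% of the collagen counts in NC, 79.7% to 81.6% in GelMA and 86.1% to 87.8% in CTS. In PLA they made up 65.3% in replicate 1 and 80.9% in replicate 2, so the lowest share of all libraries belonged to 1 of the PLA libraries and the other lay among the rest.

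The classes were also summed one by one. Fibrillar genes took 0.870%, 17.5% and 2.89% of the counts in NC replicates 1 to 3, 2.62% to 2.78% in GelMA, 2.33% to 3.64% in CTS, and 1.82% and 2.74% in PLA. Basement membrane genes took 0.0257%, 0.143% and 0.0638% in NC, 0.0589% to 0.0784% in GelMA, 0.0315% to 0.0747% in CTS, and 0.165% and 0.0958% in PLA. Multiplexin genes took 0.00666% to 0.0220% in NC, 0.0396% to 0.0422% in GelMA, 0.0137% to 0.0303% in CTS, and 0.0937% and 0.0505% in PLA. Both PLA libraries were thus above all others for the multiplexins, and for the type IV genes above all libraries other than NC replicate 2. FACIT genes took 0.0543% to 0.305% in NC, 0.0802% to 0.0919% in GelMA, 0.0629% to 0.0946% in CTS, and 0.124% and 0.105% in PLA. Beaded filament genes took 0.0621% to 0.673% in NC, 0.227% to 0.252% in GelMA, 0.128% to 0.196% in CTS, and 0.297% and 0.186% in PLA. Network genes took 0.0118% to 0.0260% in NC, 0.00553% to 0.00614% in GelMA, 0.00543% to 0.00881% in CTS, and 0.0119% and 0.0106% in PLA. GelMA and CTS were wholly below NC, and PLA replicate 2 was below NC too. These shares are a description and carry no test.

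**Figure D1:**
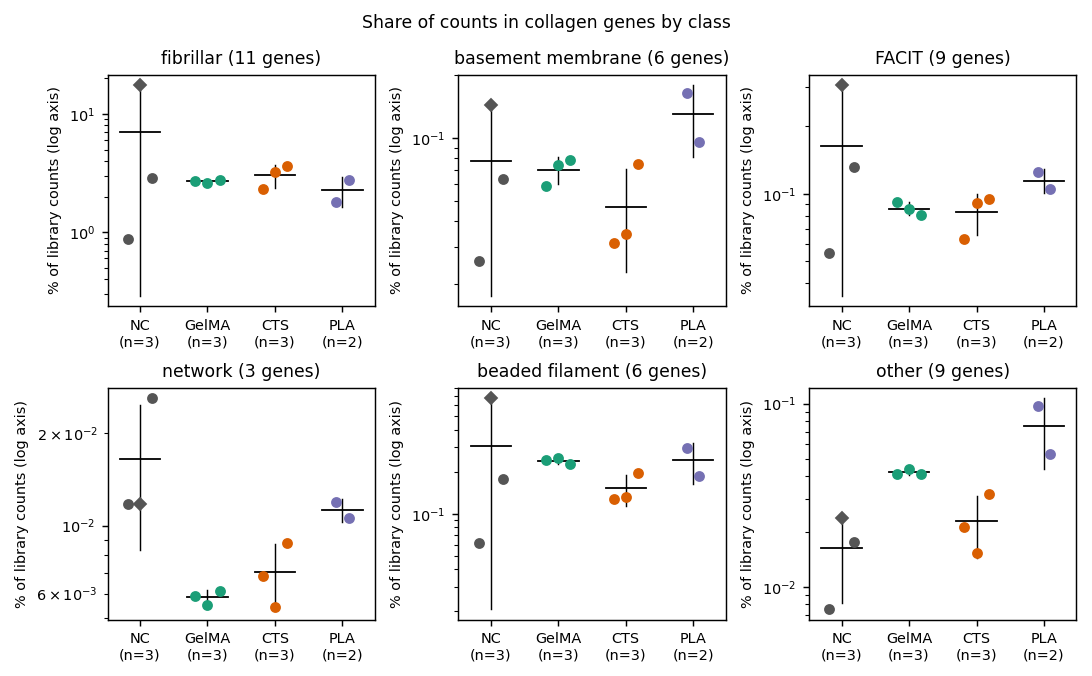
Percent of all counts taken by each collagen class in every library, on a logarithmic axis, by group, with the group mean and SD and NC replicate 2 drawn as a diamond (error bars that reach below the axis are cut). The panel named other holds the 9 remaining genes, mostly multiplexin counts, and its PLA values, 0.0977% and 0.0533%, lie above those of all other libraries, and the diamond is the highest fibrillar value at 17.5%.

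Against NC, 6 of the 39 tested collagen genes were higher in PLA and 1 was lower, or 15.4% and 2.56% of those tested, beside 8.32% and 4.01% of all genes tested. Against GelMA, 5 were higher (12.8%) and 0 lower, beside 4.61% and 1.47% of all genes. At an unadjusted p under 0.05 there were 14 of the 39, and DESeq2 called 10, with no share of all genes taken at those settings. Against CTS, 7 were higher (17.9%) and 1 lower, beside 6.42% and 3.53% of all genes. The median log2 fold change of the 39 members was −0.23 in PLA against NC, 0.53 against GelMA and 0.80 against CTS, beside −0.11, −0.04 and −0.03 for all genes. With scaling by library size alone the members' medians became −0.45, −0.01 and 0.33, so the sign of the median against GelMA turned, while the members' median minus that of all genes stayed at 0.57 against GelMA and 0.84 against CTS. All 3 use the same PLA libraries and are not independent of each other. By other settings, comparing PLA and NC alone ended the calls of Col24a1, Col25a1, Col4a6 and Col7a1 against NC, and library size scaling ended those of Col12a1, Col13a1, Col27a1 and Col8a1 against GelMA and that of Col4a1 against CTS. Testing without the filter on low counts ended the calls of Col13a1 against GelMA and of Col4a1 and Col7a1 against CTS.

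Leaving out NC replicate 2 moved the members' median in PLA against NC and raised the count of calls in all 3 comparisons. PLA against NC then held 13 collagen genes higher (33.3%) and 1 lower, beside 11.4% and 7.58% of all genes, and the members' median became 0.92 beside 0.03 for all genes. Against GelMA there were 9 higher (23.1%) and 1 lower, beside 7.2% and 3.49%, and against CTS 15 higher (38.5%) and 1 lower, beside 8.88% and 6.21%. The medians in those comparisons, 0.53 and 0.80, did not move, since neither group holds the library. Without PLA replicate 1 the counts fell to 1, 0 and 1 against NC, GelMA and CTS, and without PLA replicate 2 to 4, 3 and 4, with the lone PLA library assumed to vary like the other groups. Leaving out any GelMA library lowered the count against GelMA to 0 or 1. For the fits without a PLA or a GelMA library the share of all genes called was not taken. Whether calls fell likewise over all genes was not tested.

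GelMA had 1 of 39 members higher than NC (2.56%) and 5 lower (12.8%), beside 5.03% and 3.21% of all genes. The members' median was −0.87, beside −0.05 for all genes. With NC replicate 2 left out, 5 were higher and 5 lower (12.8% each), beside 7.26% and 6.71%, and the median became 0.49 beside 0.05, so the sign of the family median rested on that library. Comparing GelMA and NC alone left Col28a1 as the one of these 6 calls that remained, library size scaling ended that of Col8a2, and testing without the filter that of Col15a1. CTS had 0 members called against NC, beside 0.155% of all genes higher and 0.0222% lower. Against GelMA it had 0 as well, beside 0.416% and 1.32%. At an unadjusted p under 0.05 there were 9 of 39 members against NC and 7 against GelMA, and DESeq2 called 4 and 5. No share of all genes was taken at those settings, so these counts have none to be read against. When NC replicate 2 was left out, Col11a1 and Col8a2 were lower in CTS than in NC, beside 0.609% of all genes higher and 0.145% lower, and Col11a1 was lower than in GelMA, beside 3.75% higher and 3.38% lower.

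**Figure D2:**
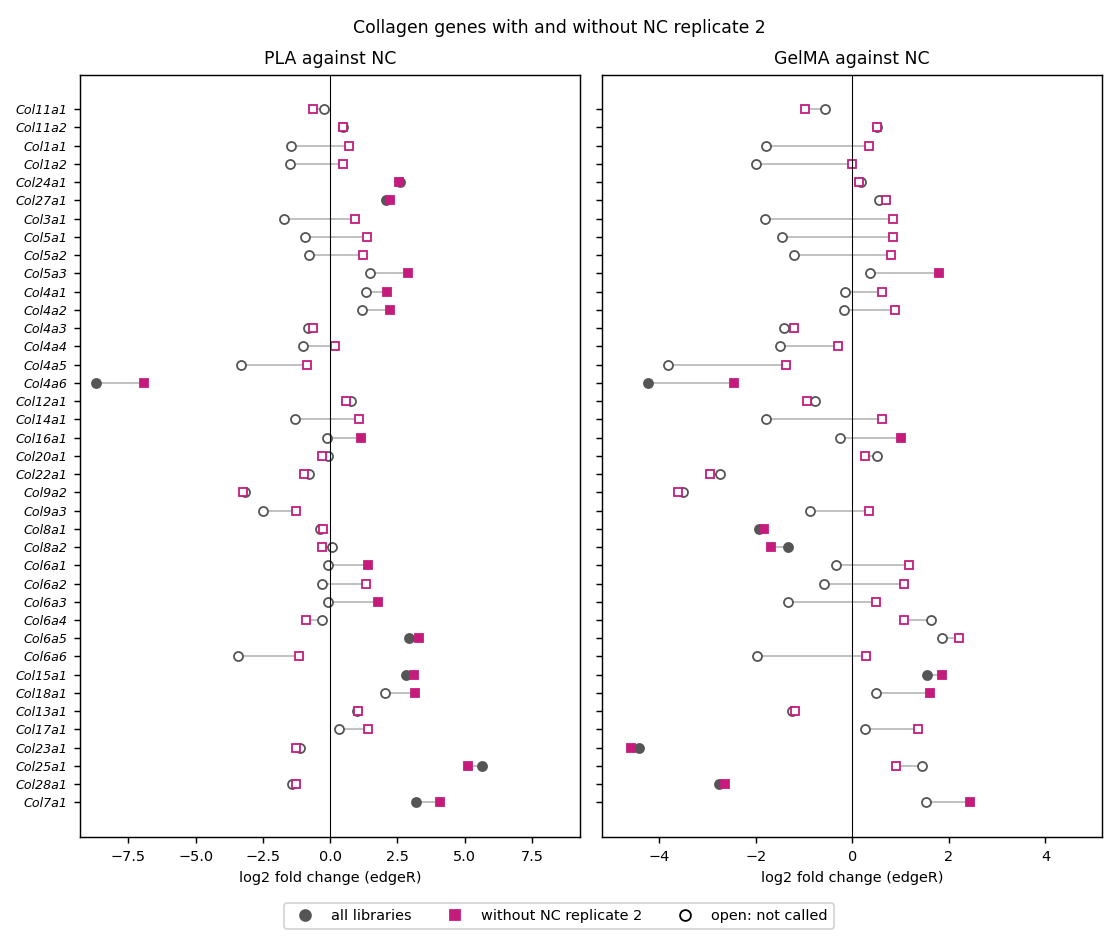
Log2 fold change of the tested collagen genes in PLA against NC and in GelMA against NC, with all libraries (circles) and without NC replicate 2 (squares), filled where the gene was called by edgeR's quasi-likelihood test. Without that library the values above 0 go from 15 to 25 of 39 in PLA and from 12 to 25 of 39 in GelMA, and the members' median from −0.23 to 0.92 and from −0.87 to 0.49.

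The main fibrous chains were the most abundant members in every group and were called in no comparison. By group mean of FPKM the order was Col3a1, Col1a1, Col1a2 and then Col6a1 in each group. NC replicate 1 departed from it, with FPKM of 628 for Col1a1, 569 for Col1a2 and 426 for Col3a1. Col1a1, which encodes the α1 chain of the type I collagen of bone and fibrous tissue, stood at 3497, 73587 and 9593 CPM in NC, 8563, 8158 and 8342 in GelMA, 7319, 9613 and 11850 in CTS, and 8625 and 12500 in PLA. The NC libraries enclosed those of all other groups. Its log2 fold change in PLA against NC was −1.45 ± 0.97 (SE, edgeR adjusted p = 0.352) with all libraries and 0.69 ± 0.41 (adjusted p = 0.242) without NC replicate 2. Col3a1, the chain of the type III collagen of loose and healing tissue, was at 1942, 90406 and 8821 CPM in NC, 9285, 9344 and 10327 in GelMA, 8037, 12576 and 13272 in CTS, and 7098 and 13226 in PLA. Here too the groups overlapped, and its mean FPKM ± SD was 5895 ± 8135 in NC (n = 3), 2279 ± 128 in GelMA (n = 3), 2561 ± 642 in CTS (n = 3) and 1650 ± 693 in PLA (n = 2). Col1a2 ran alongside, at 2428, 45911 and 6839 CPM in NC, 4506 to 4739 in GelMA, 5169 to 7288 in CTS, and 5323 and 7709 in PLA. Without NC replicate 1 the high library set the NC mean further, and Col1a1 and Col1a2 were then lower in GelMA than in NC (log2 fold changes of −2.32 and −2.52, edgeR adjusted p = 0.0406 and 0.0244).

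Col5a1 and Col5a2, chains of the type V collagen that starts fibrils and sets their width, behaved like the main chains. Col5a1 was at 129, 3547 and 434 CPM in NC, 495 to 512 in GelMA, 359 to 532 in CTS, and 728 and 720.3 in PLA. Col5a2 was at 189.6, 4043 and 610.1 CPM in NC, 645 to 736 in GelMA, 499 to 809 in CTS, and 895 and 964 in PLA. For both genes the PLA libraries were above those of GelMA and CTS and inside the NC range, and no comparison passed the test. With NC replicate 2 left out their log2 fold changes in PLA against NC were 1.36 ± 0.46 and 1.22 ± 0.45, still short of the threshold (edgeR adjusted p = 0.0555 and 0.0771).

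The minor fibrillar chains moved more. Col24a1, a fibrillar chain known from forming bone, was at 1.36, 1.94 and 2.83 CPM in NC, 1.47, 2.61 and 2.83 in GelMA, 0.473, 0.632 and 1.11 in CTS, and 17.4 and 7.13 in PLA. Both PLA libraries were above all others. Col24a1 was higher in PLA than in NC (log2 fold change 2.58 ± 0.54 SE, edgeR adjusted p = 0.0101), GelMA (2.41 ± 0.53, adjusted p = 0.0215) and CTS (4.05 ± 0.56, adjusted p = 0.00149). Only the call against CTS outlasted the removal of each library in turn, and without PLA replicate 1 the adjusted p was 0.139 against NC and 0.234 against GelMA, where the call was also lost without any 1 GelMA library. Col27a1, a fibrillar chain of cartilage and other developing tissues, was at 7.38, 12.8 and 12.1 CPM in NC, 14.4, 14.9 and 18.2 in GelMA, 11.7, 6.95 and 16.5 in CTS, and 55.2 and 36.1 in PLA. Col27a1 was higher in PLA than in NC (2.09 ± 0.36, adjusted p = 0.00407), GelMA (1.53 ± 0.36, adjusted p = 0.028) and CTS (1.96 ± 0.36, adjusted p = 0.00645), again with no overlap. Without PLA replicate 1 the adjusted p was 0.0504 for NC, 0.218 for GelMA and 0.0773 for CTS, and the call against GelMA was also lost without any 1 GelMA library, CTS replicate 1 or PLA replicate 2.

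Col5a3, a type V chain, was at 29.7, 295 and 67.5 CPM in NC, 136, 169 and 199 in GelMA, 69.9, 91.7 and 91.6 in CTS, and 488 and 238 in PLA. PLA was above GelMA and CTS and overlapped NC through NC replicate 2. With all libraries no comparison passed, and without NC replicate 2 it was higher in PLA than in NC (2.90 ± 0.45, edgeR adjusted p = 0.00173) and CTS (2.10 ± 0.38, adjusted p = 0.00388) and higher in GelMA than in NC (1.79 ± 0.41, adjusted p = 0.0149). Col11a1, a type XI chain best known from cartilage, went the other way in that library, at 88.6, 25.7 and 117 CPM in NC, 60.0, 57.9 and 37.6 in GelMA, 29.0, 20.0 and 28.3 in CTS, and 56.7 and 75.0 in PLA. CTS was below PLA and GelMA. Without NC replicate 2 Col11a1 was lower in CTS than in NC (−1.996 ± 0.24, adjusted p = 0.0176) and GelMA (−1.01 ± 0.22, adjusted p = 0.013) and higher in PLA than in CTS (1.36 ± 0.24, adjusted p = 0.00184). Col11a2 stayed between 0.934 and 2.82 CPM in all libraries. Col2a1, the chain of cartilage type II collagen, did not pass the filter, with 27 counts in all libraries together (0 in NC, 17 in GelMA, 1 in CTS and 9 in PLA).

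**Figure D3:**
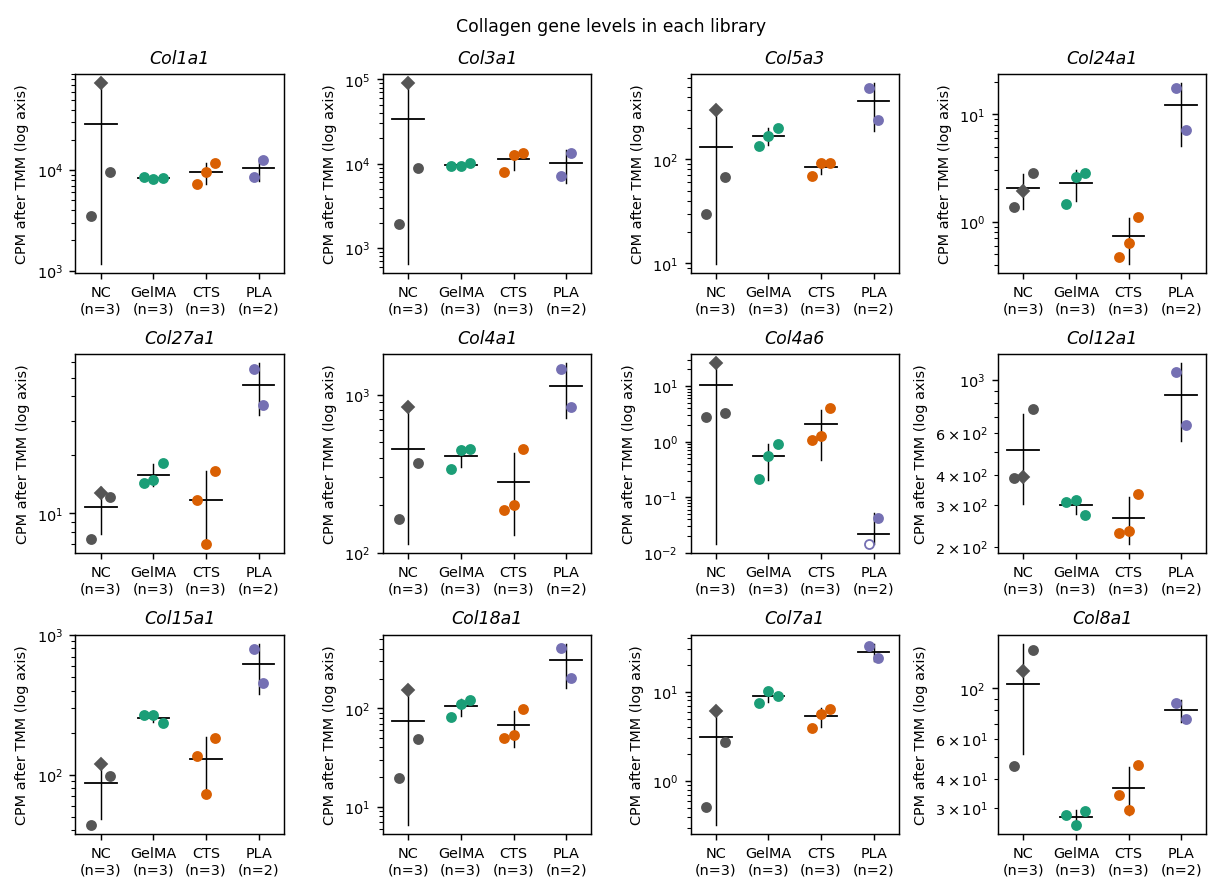
CPM after TMM scaling, on a logarithmic axis, of 12 collagen genes in every library by group, with the group mean and SD, NC replicate 2 as a diamond, and an open point at the bottom of the axis for a library at 0 (error bars that reach below the axis are cut). The PLA libraries lie above all others for Col24a1, Col27a1, Col15a1, Col18a1 and Col7a1 and below all others for Col4a6, while for Col1a1 and Col3a1 the NC libraries enclose those of all other groups.

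Among the basement membrane genes the chain pair found in nearly every basement membrane had its highest values in PLA, and the X-linked pair did not. Col4a1 was at 165, 834 and 369.9 CPM in NC, 339, 445 and 452 in GelMA, 186, 200.5 and 452 in CTS, and 1448 and 835 in PLA. Both PLA libraries were above all others, PLA replicate 2 by a narrow margin over NC replicate 2. Col4a1 was higher in PLA than in CTS (2.03 ± 0.59, edgeR adjusted p = 0.0469), while against NC and GelMA the values were 1.32 ± 0.59 (adjusted p = 0.16) and 1.47 ± 0.59 (adjusted p = 0.152). The call against CTS was lost on removing any of 8 libraries (NC replicate 3, any GelMA library, CTS replicates 1 or 2, either PLA library), with adjusted p from 0.0673 to 0.269. Col4a2 was at 60.0, 464 and 158 CPM in NC, 166, 212 and 227 in GelMA, 91.5, 89.5 and 202 in CTS, and 656 and 374 in PLA. Its log2 fold changes in PLA were close to those of Col4a1, at 1.18 ± 0.67, 1.35 ± 0.67 and 2.01 ± 0.68 against NC, GelMA and CTS, and did not pass. On leaving out NC replicate 2 both genes passed as higher in PLA than in NC (2.09 ± 0.53 and 2.23 ± 0.55, adjusted p = 0.0187 and 0.017).

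Col4a6, a chain of epithelial and smooth muscle basement membranes, was at 2.80, 25.6 and 3.33 CPM in NC, 0.210, 0.546 and 0.905 in GelMA, 1.06, 1.26 and 4.03 in CTS, and 0 and 0.0430 in PLA. PLA was below all other libraries and GelMA below NC and CTS. The PLA libraries held 1 count together, against 719 in NC, 56 in GelMA and 199 in CTS. The ratio of PLA to NC was 0.00211 (exact 95% interval 5.33e-05 to 0.0118), that to CTS 0.0102 (0.000256 to 0.0574) and that to GelMA 0.0379 (0.000942 to 0.220), intervals that cover counting error alone. Of the 719 NC counts 566 were in NC replicate 2. By edgeR it was lower in PLA than in NC (fitted log2 fold change −8.69, adjusted p = 0.00909) and CTS (−6.38, adjusted p = 0.0354), and lower in GelMA than in NC (−4.24 ± 1.03, adjusted p = 0.0292). With so few counts the fitted values for PLA depend on the prior count and are no measure of size. With NC replicate 2 left out the fitted values against NC became −6.92 in PLA and −2.46 ± 0.80 in GelMA (adjusted p = 0.00261 and 0.0468). PLA against GelMA was not called with all libraries (fitted value −4.45) and was called in that fit (edgeR adjusted p = 0.0292). DESeq2 did not call the 3 differences that edgeR called with all libraries, but a gene to which it gave no adjusted p also counted as not called. The call against NC was lost without either PLA library (adjusted p = 0.0714 and 0.0904), and the call of GelMA against NC without any 1 GelMA library (adjusted p from 0.0776 to 0.107). The call against CTS was lost without GelMA replicate 2, any CTS library or either PLA library (adjusted p from 0.0547 to 0.216).

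Col4a5, the neighbour of Col4a6, was at 13.6, 449 and 48.5 CPM in NC, 7.81, 9.68 and 18.7 in GelMA, 11.1, 25.8 and 31.7 in CTS, and 3.98 and 30.4 in PLA. PLA replicate 1 was the lowest of all libraries and PLA replicate 2 among the highest outside NC, and no comparison passed with all libraries. Without NC replicate 1 it was lower than in NC both in GelMA (−4.37, edgeR adjusted p = 0.0224) and in PLA (−3.85, adjusted p = 0.0490). Col4a3 and Col4a4, chains of the glomerular and lung basement membrane, were low throughout, at 0.620 to 6.33 and 0.467 to 3.61 CPM. Their highest values were both in NC replicate 2.

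Both multiplexins had their highest values in PLA. Col15a1, which bridges fibrils and the basement membrane of vessels and muscle, was at 43.9, 119.6 and 97.8 CPM in NC, 267, 268 and 234 in GelMA, 135, 72.2 and 184 in CTS, and 793 and 451 in PLA. PLA was above all libraries, GelMA was above NC and CTS, and CTS overlapped NC. It was higher in PLA than in NC (2.84 ± 0.46, edgeR adjusted p = 0.00267), a call that held on leaving out any library, and than in CTS (2.25 ± 0.45, adjusted p = 0.00962, lost without PLA replicate 1 at 0.0985). Against GelMA the value was 1.28 ± 0.44 (adjusted p = 0.103). In GelMA it was higher than in NC (1.56 ± 0.41, adjusted p = 0.0402), but that call was lost on removing any of 8 libraries, with adjusted p from 0.0523 to 0.125, and held without NC replicate 2, CTS replicate 2 or CTS replicate 3. As FPKM, Col15a1 averaged 16.0 ± 6.24 in NC (n = 3), 55.6 ± 4.48 in GelMA (n = 3), 27.1 ± 11.5 in CTS (n = 3) and 93.0 ± 36.8 in PLA (n = 2).

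Col18a1, the source of the angiogenesis inhibitor endostatin, was at 19.7, 154 and 48.6 CPM in NC, 82.0, 111 and 120.1 in GelMA, 49.5, 53.5 and 98.0 in CTS, and 409 and 204 in PLA. Both PLA libraries were above all others. With all libraries it missed the threshold in PLA against NC (2.05 ± 0.68, edgeR adjusted p = 0.0668), GelMA (1.56 ± 0.67, adjusted p = 0.182) and CTS (2.19 ± 0.68, adjusted p = 0.0577). Without NC replicate 2 it passed in all 3, with adjusted p = 0.00293, 0.0396 and 0.00745. Markers of pericytes and smooth muscle (7 genes, none at 0 in every library) summed to 803 and 529 CPM in PLA, against 114 to 350 CPM elsewhere, and endothelial markers (7 genes) to 293 and 268 CPM in PLA, above the 167 to 186 CPM of GelMA, within the 158 to 338 CPM of CTS and, in PLA replicate 2, within the 133 to 278 CPM of NC. Of the 7 pericyte and smooth muscle markers 3 were called higher in PLA against NC, 1 against GelMA and 1 against CTS, beside 8.32%, 4.61% and 6.42% of all genes. When NC replicate 2 was left out these counts were 4, 1 and 5, beside 11.4%, 7.2% and 8.88% of all genes. Of the 7 endothelial markers 1 was called higher in PLA against NC (Vwf), 2 against GelMA (Cdh5 and Vwf) and 0 against CTS (where 0 reached an unadjusted p under 0.05 and DESeq2 called 0), beside the same 8.32%, 4.61% and 6.42%. When NC replicate 2 was left out the endothelial counts were 2, 4 and 0, beside the same 11.4%, 7.2% and 8.88%. Their part in the basement membrane and multiplexin values was not tested.

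Among the FACIT genes 1 was called with all libraries. Col12a1, which coats fibrils in tendon, periosteum and sutures, was at 388, 392 and 754 CPM in NC, 308, 315 and 272 in GelMA, 228, 232 and 333 in CTS, and 1084 and 647 in PLA. It was higher in PLA than in GelMA (1.54 ± 0.33, edgeR adjusted p = 0.019) and CTS (1.71 ± 0.33, adjusted p = 0.00797), with no overlap, while PLA and NC overlapped through NC replicate 3 (0.76 ± 0.33, adjusted p = 0.15). The call against GelMA was lost without any 1 GelMA library or PLA replicate 1 (adjusted p from 0.0702 to 0.186), and that against CTS without PLA replicate 1 (0.0992). Col14a1, a FACIT of dense connective tissue, was at 82.2, 3092 and 364 CPM in NC, 323 to 360.3 in GelMA, 295 to 533 in CTS, and 373 and 576 in PLA, and passed no test with all libraries. Without NC replicate 1 it was lower in GelMA than in NC (−2.35, adjusted p = 0.0429). Col16a1 was at 39.4, 307 and 78.4 CPM in NC, 104 to 129.7 in GelMA, 52.9 to 76.6 in CTS, and 133 and 130.2 in PLA. Its log2 fold change turned from −0.10 to 1.16 in PLA against NC and from −0.25 to 1.01 in GelMA against NC when NC replicate 2 was left out (adjusted p = 0.0126 and 0.021 without it). Col9a2, Col9a3, Col20a1 and Col22a1 stayed at or below 5.86 CPM in every library.

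The tested network genes, taken singly, separated GelMA from NC, while CTS overlapped NC in each. Col8a1, a chain of the type VIII collagen of vessel walls and subendothelial sheets, was at 45.7, 119 and 147 CPM in NC, 27.8, 25.3 and 29.1 in GelMA, 34.1, 29.4 and 46.2 in CTS, and 86.5 and 73.7 in PLA. GelMA was below all other libraries, and PLA lay inside the NC range. It was lower in GelMA than in NC (−1.93 ± 0.36, edgeR adjusted p = 0.00984), a call kept on leaving out any library, and higher in PLA than in GelMA (1.55 ± 0.39, adjusted p = 0.0357). The latter was lost without any 1 GelMA library, CTS replicates 1 or 2, or either PLA library (adjusted p from 0.0504 to 0.186). Col8a2, its partner chain, was at 66.8, 27.1 and 91.2 CPM in NC, 23.6, 24.3 and 25.8 in GelMA, 29.3, 20.5 and 35.6 in CTS, and 66.5 and 63.2 in PLA. It was lower in GelMA than in NC (−1.33 ± 0.37, adjusted p = 0.0455), lost on removing any library but NC replicate 2, CTS replicate 2 or CTS replicate 3 (adjusted p from 0.0615 to 0.125). Without NC replicate 2, the NC library with the lowest value, it was lower in GelMA (−1.69 ± 0.21, adjusted p = 0.000422) and CTS (−1.47 ± 0.21, adjusted p = 0.0186) than in NC. In that fit Col8a2 was also higher in PLA than in GelMA (1.40 ± 0.21, edgeR adjusted p = 0.000762) and CTS (1.19 ± 0.21, edgeR adjusted p = 0.00155). Col10a1, the type X chain of hypertrophic cartilage, had 14 counts in all libraries together and was not tested.

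The main beaded filament chains were led by NC replicate 2. Col6a1 was at 235, 2604 and 562 CPM in NC, 922, 978 and 795 in GelMA, 454, 448 and 758 in CTS, and 1240 and 887 in PLA. Col6a2 was at 169, 2592 and 534 CPM in NC, 672 to 781 in GelMA, 372 to 603 in CTS, and 1043 and 741 in PLA. Col6a3 was at 176, 2854 and 482 CPM in NC, 422, 458 and 511 in GelMA, 339, 321 and 432 in CTS, and 1489 and 743 in PLA. These chains together form the type VI filaments around most connective tissue cells, and none was called with all libraries. Without NC replicate 2 the log2 fold change in PLA against NC turned from −0.09 to 1.41 for Col6a1 (edgeR adjusted p = 0.0301) and from −0.07 to 1.76 for Col6a3 (adjusted p = 0.0216), and Col6a3 was also higher than in CTS (1.62 ± 0.41, adjusted p = 0.0182). Col6a2 then stood at 1.34 ± 0.47 (adjusted p = 0.0637).

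Col6a5, a chain that can take the place of Col6a3 in the filament, was at 2.55, 4.43 and 2.30 CPM in NC, 13.7, 11.05 and 9.11 in GelMA, 0.768, 0.601 and 5.83 in CTS, and 26.1 and 21.1 in PLA. PLA was above all others and GelMA above NC and CTS. It was higher in PLA than in NC (2.93 ± 0.79, edgeR adjusted p = 0.0323) and CTS (3.30 ± 0.80, adjusted p = 0.0232). The call against NC was lost without NC replicate 1 or 3, any 1 GelMA library or either PLA library (adjusted p from 0.0532 to 0.137), and that against CTS without CTS replicates 1 or 2 or either PLA library (adjusted p from 0.0591 to 0.112). CTS replicate 3, at 5.83 CPM, lay apart from the other CTS libraries, and without it Col6a5 was lower in CTS than in GelMA (−4.00, adjusted p = 0.00567) and higher in GelMA than in NC (1.81, adjusted p = 0.00996). Col6a6 spanned 9.17 to 315 CPM in NC and 3.48 to 41.6 CPM elsewhere, and Col6a4 stayed at or below 2.66 CPM.

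The low transmembrane and anchoring genes held some of the largest fold changes. Col7a1, the anchoring fibril chain of the skin, was at 0.509, 6.01 and 2.76 CPM in NC, 7.57, 10.1 and 8.99 in GelMA, 3.96, 5.56 and 6.39 in CTS, and 32.5 and 23.8 in PLA. It was higher in PLA than in NC (3.19 ± 0.68, edgeR adjusted p = 0.0118, lost without PLA replicate 1 at 0.0726) and CTS (2.41 ± 0.66, adjusted p = 0.0376, lost without any of 9 libraries at 0.0569 to 0.190, held without NC replicates 1 or 2). Both PLA libraries were above all others. Col25a1, a transmembrane collagen known from neurons and muscle, was at 0, 0 and 0.268 CPM in NC, 0.0300, 0.577 and 0.175 in GelMA, 0.413, 0.221 and 0.0983 in CTS, and 5.68 and 4.13 in PLA. The NC libraries held 7 counts and the PLA libraries 233. Col25a1 was higher in PLA than in NC (5.66 ± 1.44, adjusted p = 0.0254), lost without either PLA library (adjusted p = 0.0880 and 0.122). All 7 NC counts were in NC replicate 3, and the fitted value ran from 5.099 to 10.1 as libraries were left out in turn, so it is no measure of size.

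Col13a1, a transmembrane collagen of cell-matrix junctions, was at 1.36, 1.81 and 1.88 CPM in NC, 0.541, 0.941 and 0.642 in GelMA, 1.18, 2.59 and 2.33 in CTS, and 4.81 and 1.85 in PLA. GelMA was below all others, and it was higher in PLA than in GelMA (2.23 ± 0.56, edgeR adjusted p = 0.0362), lost on leaving out any GelMA library, CTS replicates 2 or 3 or PLA replicate 1 (adjusted p from 0.0530 to 0.322). Col23a1, another transmembrane collagen, was at 2.29, 1.54 and 2.22 CPM in NC, 0, 0.243 and 0.0292 in GelMA, 1.03, 0.948 and 0.197 in CTS, and 1.08 and 0.774 in PLA. It was lower in GelMA than in NC (−4.42 ± 1.13, adjusted p = 0.0344), lost without any of 7 libraries (NC replicate 3, GelMA replicates 1 or 3, CTS replicates 1 or 2, either PLA library) at 0.0507 to 0.128. The fitted value rests on counts of 0, 8 and 1 in GelMA and ran from −3.91 to −6.77 over the libraries left out, so it is no measure of size either. Col28a1, a collagen known from peripheral nerve, was at 3.35, 5.11 and 4.59 CPM in NC, 0.571, 0.364 and 0.964 in GelMA, 1.59, 1.11 and 2.23 in CTS, and 2.07 and 1.20 in PLA. NC was above all other libraries and GelMA below, and the fall in GelMA against NC (−2.77 ± 0.50, adjusted p = 0.00839) held on leaving out any library. Col17a1 was at 0.934 to 7.59 CPM and passed no test. Col9a1, Col19a1 and Col26a1 were not tested, with 7, 28 and 31 counts in all libraries together.

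Ratios between chains within a library do not depend on library scaling, and 4 of them, 3 between chains of the same collagen type and that of the type I to the type III chain, were compared as FPKM ratios by an exact permutation test over all 92400 ways to place the 11 libraries in the groups, one-sided in the spread between groups, with the 4 adjusted together. The triple helix of type I collagen usually holds more α1 than α2 chains. Col1a1 to Col1a2 was 1.10, 1.23 and 1.07 in NC, 1.46, 1.38 and 1.35 in GelMA, 1.09, 1.25 and 1.25 in CTS, and 1.24 in both PLA libraries. GelMA was above all other libraries, with an unadjusted exact p of 0.0224 and an adjusted p of 0.0896. The adjusted exact p was 0.0213 without NC replicate 2 and 0.0197 without CTS replicate 1. Col1a1 to Col3a1 ran from 0.626 to 1.47 over all libraries, with both ends outside PLA (exact permutation p = 0.322, adjusted p = 0.644). Col4a1 to Col4a2 was 1.72 to 2.62 in NC, 1.91 to 2.01 in GelMA, 1.95 to 2.14 in CTS, and 2.11 and 2.14 in PLA (exact permutation p = 0.791, adjusted p = 0.856). Without NC replicate 2, which held the lowest value, its adjusted exact p was 0.0213. Col6a1 to Col6a2 ran from 1.29 to 1.78, both ends in NC (exact permutation p = 0.856, adjusted p = 0.856).

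**Figure D4:**
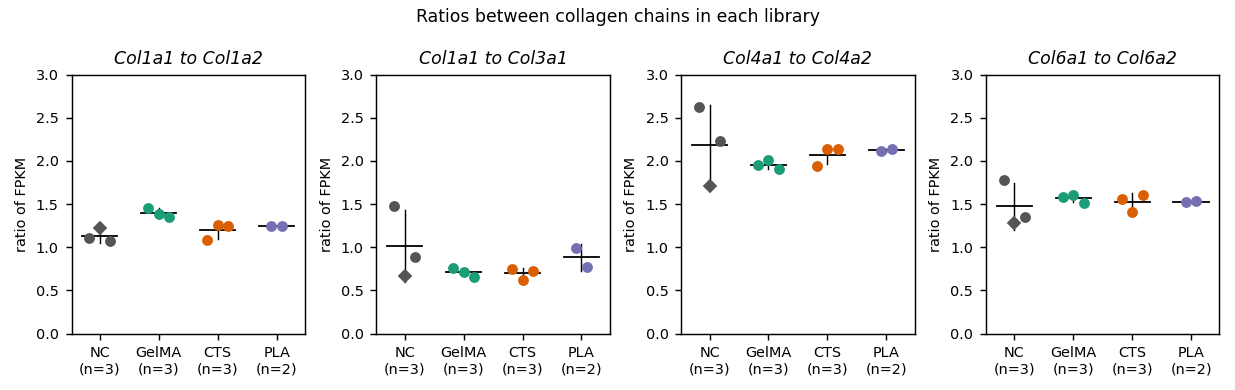
FPKM ratios of Col1a1 to Col1a2, Col1a1 to Col3a1, Col4a1 to Col4a2 and Col6a1 to Col6a2 in every library by group, with the group mean and SD and NC replicate 2 as a diamond. The GelMA libraries have the highest Col1a1 to Col1a2 ratios, 1.35 to 1.46, and the Col4a1 to Col4a2 ratios of all libraries lie between 1.72 and 2.62.

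The genes that modify new collagen chains were counted by list and direction. These lists were set with earlier results of these data known, so their counts beside the shares of all genes are a description alone. Of 14 tested genes for prolyl and lysyl hydroxylation and glycosylation, 3 were higher in PLA against NC, 2 against GelMA and 4 against CTS, beside 8.32%, 4.61% and 6.42% of all genes. By edgeR 0 of the 14 were called lower (1, 0 and 0 were lower at an unadjusted p under 0.05, and DESeq2 called the same numbers lower), with list medians of −0.05, 0.19 and 0.48 on the log2 scale beside −0.11, −0.04 and −0.03 for all genes. P4ha1, the catalytic subunit of collagen prolyl 4-hydroxylase, was at 68.8, 282 and 98.7 CPM in NC, 161, 201 and 230.0 in GelMA, 63.9, 74.1 and 149.8 in CTS, and 892 and 891 in PLA. PLA was above all others, and P4ha1 was higher than in NC (2.57 ± 0.54, edgeR adjusted p = 0.0113), GelMA (2.18 ± 0.54, adjusted p = 0.0352) and CTS (3.22 ± 0.55, adjusted p = 0.00465). The call against NC was lost without either PLA library (adjusted p = 0.0567 and 0.0570), and that against GelMA without any 1 GelMA library, CTS replicate 2 or either PLA library (0.0512 to 0.154). P4hb, the β subunit of the same enzyme, was at 1687 and 1647 CPM in PLA and 514 to 880.2 CPM elsewhere, and was higher than in NC (1.32 ± 0.23, adjusted p = 0.0041), GelMA (1.03 ± 0.23, adjusted p = 0.0223, lost without any 1 GelMA library or either PLA library at 0.0682 to 0.137) and CTS (1.48 ± 0.23, adjusted p = 0.00264).

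Plod2, which hydroxylates lysines in the chain ends used for cross-links, was at 15.0, 13.2 and 28.4 CPM in NC, 71.2, 74.5 and 81.5 in GelMA, 17.4, 22.3 and 42.4 in CTS, and 182 and 109.9 in PLA. It was higher than in NC both in PLA (2.95 ± 0.42, edgeR adjusted p = 0.00128) and in GelMA (2.00 ± 0.39, adjusted p = 0.0111), and higher in PLA than in CTS (2.42 ± 0.41, adjusted p = 0.00446, lost without PLA replicate 1 at 0.0506). P4ha3 was higher in PLA than in CTS (2.10 ± 0.45, adjusted p = 0.0131), lost without CTS replicate 1 or PLA replicate 1 (0.0575 and 0.132). Colgalt2, a galactosyltransferase of hydroxylysine, was at 1.36, 6.01 and 3.06 CPM in NC and 0.601, 0.607 and 1.02 in GelMA, where it was lower (−2.22 ± 0.61, adjusted p = 0.0456), a call lost on leaving out any library other than NC replicate 1 (0.0591 to 0.146).

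The chaperones and secretion list had 1 of 7 genes higher in PLA in each comparison, beside the same 8.32%, 4.61% and 6.42% of all genes, and 0 lower, and by DESeq2 the counts were the same, as they were at an unadjusted p under 0.05. That gene was Tmem38b, a cation channel of the endoplasmic reticulum needed for type I collagen assembly, at 74.0, 22.1 and 56.8 CPM in NC, 31.8 to 33.8 in GelMA, 39.0 to 55.2 in CTS, and 320.5 and 374 in PLA. It was higher than in NC (2.77 ± 0.39, edgeR adjusted p = 0.00117), GelMA (3.40 ± 0.40, adjusted p = 0.000933) and CTS (2.83 ± 0.39, adjusted p = 0.00142), and these calls held on leaving out any library. Serpinh1, which encodes the collagen chaperone Hsp47, was not called, at 131, 2121 and 420.2 CPM in NC, 379 to 436 in GelMA, 235 to 589 in CTS, and 608 and 487 in PLA. Of 10 collagen receptors, 1 was higher in PLA in each comparison, a share near that of all genes (8.32%, 4.61% and 6.42%). It was the integrin subunit Itga1, at 129.8 and 80.2 CPM in PLA and 43.3 to 58.3 CPM elsewhere (log2 fold changes of 1.03 ± 0.21, 1.14 ± 0.21 and 1.17 ± 0.21 against NC, GelMA and CTS, adjusted p = 0.00822, 0.00854 and 0.00507). Its call against NC sat at the fold threshold and was lost on leaving out any library other than NC replicate 3 or PLA replicate 2, with log2 fold changes of 0.64 to 1.00, that against GelMA without GelMA replicates 1 or 2 or PLA replicate 1 (0.0505 to 0.115), and that against CTS without PLA replicate 1 (0.0727).

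With all libraries, no cross-linking gene (0 of 5) and no propeptide removal gene (0 of 6) was called by edgeR in a PLA comparison. At an unadjusted p under 0.05 these counts were 0 for cross-linking and, for propeptide removal, 0 against NC and GelMA and 1 against CTS, and DESeq2 called the same numbers. When NC replicate 2 was left out, edgeR called 2 propeptide removal genes higher in PLA, beside 11.4% of all genes against NC and 8.88% against CTS. The procollagen N-proteinase Adamts14 stood at 2.345 ± 0.46 against NC (edgeR adjusted p = 0.00333) and 2.02 ± 0.40 against CTS (adjusted p = 0.00328). The C-proteinase Bmp1 stood at 1.76 ± 0.47 against NC (edgeR adjusted p = 0.0238) and 1.42 ± 0.41 against CTS (adjusted p = 0.0345). In that fit the cross-linking count stayed at 0. Lox, the main lysyl oxidase, was at 119.7, 841 and 315 CPM in NC, 142 to 169 in GelMA, 116 to 239.6 in CTS, and 299 and 285 in PLA, with a log2 fold change of 0.93 ± 0.61 in PLA against GelMA (edgeR adjusted p = 0.38). Pcolce, the enhancer of C-propeptide removal, was at 67.2, 727 and 179.9 CPM in NC, 99.6 to 114 in GelMA, 103 to 171 in CTS, and 191 and 167 in PLA. Both followed the fibrillar chains in having their highest value in NC replicate 2. Tll1, a procollagen C-proteinase, was at 8.49, 35.7 and 15.8 CPM in NC and 4.04 to 4.85 in GelMA and was lower in GelMA than in NC (−2.14 ± 0.47, adjusted p = 0.0193), lost without any 1 GelMA library (0.0646 to 0.0803).

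**Figure D5:**
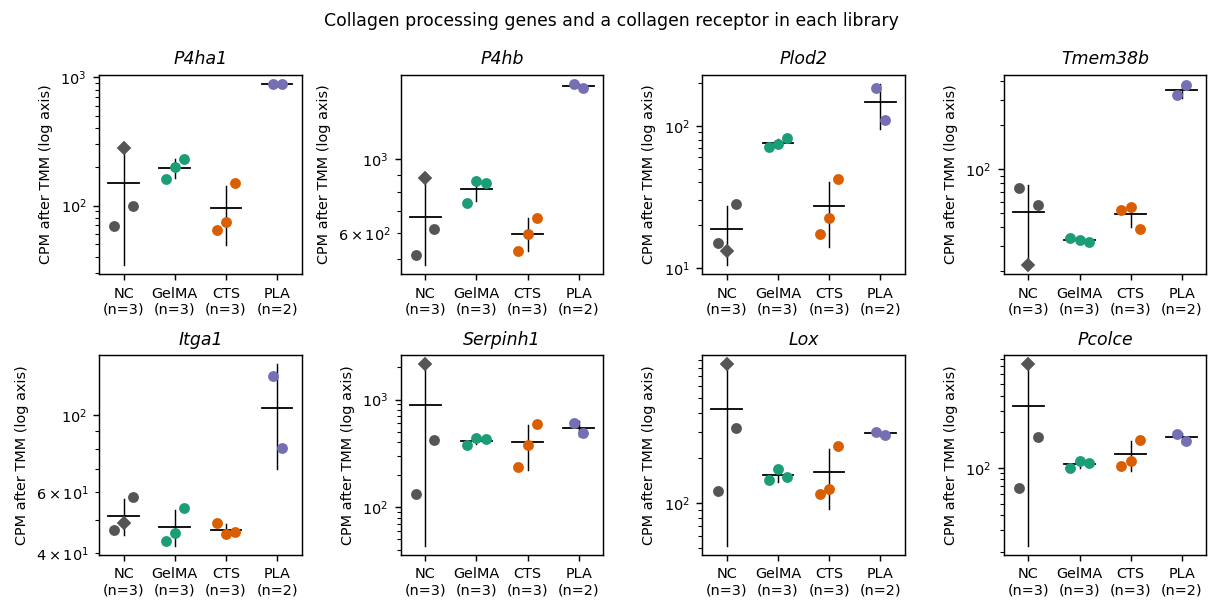
CPM after TMM scaling, on a logarithmic axis, of 8 genes that modify, fold, trim, cross-link or bind collagen, in every library by group, with the group mean and SD and NC replicate 2 as a diamond (error bars that reach below the axis are cut). P4ha1, P4hb, Plod2, Tmem38b and Itga1 are highest in both PLA libraries, while Serpinh1, Lox and Pcolce peak in NC replicate 2.

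Summed marker levels of other cells are given for the groups in which they moved. Fibroblast markers summed to 2614 to 2975 CPM in GelMA, 2598 to 5311 in CTS, and 3813 and 4569 in PLA, and with all libraries 0 of 8 were called by edgeR in any comparison, with 0 to 3 at an unadjusted p under 0.05 and 0 or 1 called by DESeq2. With NC replicate 2 left out, 1 of the 8 was higher in PLA against NC and 1 in PLA against CTS, beside 11.4% and 8.88% of all genes. Osteoblast markers (8 genes) summed to 267, 97.1 and 273 CPM in NC, 170 to 213 in GelMA, 97.1 to 251 in CTS, and 192 and 183 in PLA. With all libraries edgeR called Runx2 alone of these 8, higher in GelMA than in NC and lower in CTS than in GelMA, beside 5.03% and 1.32% of all genes. The list median log2 fold change in GelMA against NC was −1.10, and 0 were called there without NC replicate 2. Chondrocyte markers (7 genes) summed to 84.0 CPM in NC replicate 3 and 4.84 to 29.6 CPM elsewhere. With all libraries edgeR called Acan and Comp lower in GelMA than in NC, beside 3.21% of all genes, and no other of the 7 in any comparison. Neutrophil markers (7 genes) summed to 63064, 8279 and 42828 CPM in NC, 4653 to 12005 in GelMA, 27424 to 42998 in CTS, and 10450 and 10576 in PLA. Of the 6 tested, 3 were called lower in GelMA than in NC (Camp, Mmp8 and Mmp9). In PLA 2 were lower than in NC (Camp and Mmp8) and 1 lower than in CTS (Mmp8). The shares of all genes were 3.21%, 4.01% and 3.53%. Without NC replicate 2 these counts were 6, 5 and 4, beside 6.71%, 7.58% and 6.21% of all genes. In that fit 5 were higher in CTS and 2 in PLA than in GelMA, beside 3.75% and 7.2%. Markers of monocytes and macrophages (7 genes) summed to 2551 to 10497 CPM in NC, 5045 to 8522 in GelMA, 10007 to 12658 in CTS, and 3919 and 4511 in PLA. The calls for single macrophage markers did not follow that sum. Of the 7, 4 were higher in PLA than in NC (Adgre1, Cd14, Cd68 and Mrc1, list median log2 fold change 1.23), 5 were higher in GelMA than in NC (those 4 and Csf1r, median 1.77) and 1 in CTS than in NC (Cd14). In PLA 2 were lower than in GelMA and 2 higher than in CTS (Adgre1 and Mrc1 in both). In that order the shares of all genes were 8.32%, 5.03%, 0.155%, 1.47% and 6.42%. No marker was at 0 in every library, and the part of these cells in the collagen values was not tested.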

How the data were processed

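RNA-seq was available for 11 libraries in 4 groups, mapped by the labels. Per the submitters' processing notes, the authors used fastp, HISAT2, HTSeq and DESeq with the rat assembly mRatBN7.2, and versions, parameters and strand settings are not given in the sources used here. The deposited tables hold whole-number counts and FPKM per gene symbol, without positions. The FPKM followed from the counts, since all 205408 values above 0 matched the count over length and library total to within 0.001 in relative terms. The counts were filtered with filterByExpr (minimum count 10), scaled by TMM and fitted with edgeR 4.0.16 in R 4.3.3 as a robust quasi-likelihood model in which group was the single term, giving 6 pairwise comparisons. The SE is the size of the log2 fold change over the root of its F statistic. DESeq2 1.42.0 was run beside it, and a gene without an adjusted p counted as not called. The 44 members were assigned to classes, and values in every library were given for a panel of 18 well-known members and for each other member called in a comparison. The members, classes and lists were chosen with earlier results of these data known. Exact 95% intervals of ratios of counts cover counting error alone. The alternatives were DESeq2, library size alone or RLE factors as scaling, no fold threshold, no filter, the 2 groups compared alone, the replicate number as a block, counts in place of FPKM in ratios, mitochondrial genes left out of the denominator of shares, and each library left out. The steps were tested on simulated data. RefSeq promoter sequences are of GRCr8, another build than that of the counts, so no position was carried over. Figures were drawn with matplotlib 3.10.9.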

Additional observations from a re-analysis of the deposited data

How the results depend on the processing

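With edgeR on the 2 groups compared alone, the number of collagen genes called became 3 in PLA against NC, 14 in PLA against GelMA, 16 in PLA against CTS, 2 in GelMA against NC and 1 in CTS against GelMA, from 7, 5, 8, 6 and 0. With DESeq2 on all 4 groups it became 10 in PLA against GelMA, 14 in PLA against CTS, 4 in CTS against NC and 5 in CTS against GelMA, and with library size alone it became 2 in PLA against GelMA. Leaving out 1 library at a time gave 1 to 14 members called in PLA against NC, 0 to 10 in PLA against GelMA, 1 to 16 in PLA against CTS, 2 to 10 in GelMA against NC, 0 to 2 in CTS against NC and 0 to 1 in CTS against GelMA. The share of all genes called was taken only for the main fit and the fit without NC replicate 2. The other counts were thus not set against all genes, and the cause of these changes was not tested. The log2 fold changes of Col16a1, Col6a1 and Col6a3 turned when NC replicate 2 was left out. Over all libraries left out in turn they ran from −0.55 to 1.16 in PLA against NC and −0.70 to 1.01 in GelMA against NC for Col16a1, from −0.57 to 1.41 in PLA against NC for Col6a1 and from −0.66 to 1.76 in PLA against NC for Col6a3, with the highest value in each case without NC replicate 2. RLE size factors and the absence of a fold threshold left every count of called members within 1.5 times its value.

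Replicate numbers are shared between groups in the labels. The 15 pairs of same-numbered libraries correlated at −0.108 to 0.118 in their deviations from the group means, with 1 pair over 0.1. The 30 pairs of different number correlated at −0.191 to 0.258, with 2 over 0.1. The sources used here do not say whether same-numbered libraries were prepared together, and correlations of this size cannot decide it. With the replicate number as a block, 3 members were called in GelMA against NC, against 6 without it, and 6, 5, 7, 0 and 0 in PLA against NC, PLA against GelMA, PLA against CTS, CTS against NC and CTS against GelMA. The share of all genes called with the block was not taken.

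With mitochondrial genes left out of the denominator, the mean share of every class rose in every group. For fibrillar genes it went from 7.09% to 7.38% in NC, 2.71% to 2.85% in GelMA, 3.06% to 3.25% in CTS and 2.28% to 2.36% in PLA. In GelMA it went from 0.00585% to 0.00616% for network genes and from 0.241% to 0.254% for beaded filament genes. For the 9 remaining genes, multiplexins included, it went from 0.0423% to 0.0445% in GelMA. Leaving out 1 library at a time gave the chain ratio Col1a1 to Col1a2 adjusted exact p-values of 0.0197 (without CTS replicate 1) to 0.352 and the chain ratio Col4a1 to Col4a2 values of 0.0213 (without NC replicate 2) to 0.975, and the ratio Col1a1 to Col1a2 also gave 0.0213 without NC replicate 2.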
